A study of Mus musculus with 36 samples.

Results

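Between meals the liver supplies the blood with glucose, first by breaking down glycogen and then by gluconeogenesis, the making of new glucose from lactate, amino acids and glycerol. After a meal insulin turns these routes down and glycogen is stored again. Fasting raises glucagon and glucocorticoid signals, which act on the genes of gluconeogenesis through transcription factors such as CREB and FOXO1 and the coactivator PGC-1alpha. The liver's circadian clock adds a daily rhythm to many of the same genes. The genes described here are 9 of this system, chosen from a list that reads feeding state. They are G6pc, Pck1 and Fbp1 (gluconeogenesis), Gys2, Pygl, Ppp1r3b and Ppp1r3c (glycogen), and Ppargc1a and Foxo1 (transcriptional control). All 9 were found by symbol among the 53715 gene identifiers of the count table, and all 9 passed the low-count filter that left 14068 tested genes.

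Liver RNA was sequenced from 36 male C57BL/6 mice aged 10 weeks. From 4 weeks of age, for 6 weeks, they ate AIN93G, a purified rodent diet that served as control, or a macronutrient-matched diet in which 10% of the weight was powder of red tomato or of tangerine tomato. Tangerine tomatoes carry lycopene mainly in cis forms, and red tomatoes mainly in the all-trans form. Each diet had 12 libraries with mouse numbers of their own, counted here as 12 mice; by the labels some groups may have held fewer. The time of day and the feeding state of the mice when tissue was taken are not given in the sources used here.

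Library totals lay between 21290169 and 33810573 counts, and the 9 genes had between 163 (Ppargc1a, lowest library) and 116668 (Pck1, highest library) counts in a library. The 5 hepatocyte markers that could be matched, among them albumin, summed to 84000 to 119000 CPM (counts scaled to a common library size) in every library. Of these 5, Cps1 rose on tangerine against red (log2 0.40, edgeR adjusted p = 0.0446, a call kept in 20 of 36 fits with a library left out) and the other 4 did not pass in that comparison (−0.10 to 0.13). Against control, Cps1 was at −0.38 on red and 0.02 on tangerine, and neither passed. Markers of neighbouring tissue were low in most libraries and stood out in a few. The adipose markers summed to 53 or more counts in every library, most of it from 1 gene. Cidec had a median of 77 counts, and Adipoq, Plin1, Lep and Cfd had medians of 1, 0, 0 and 0. Red mouse 186 had 894 counts of the 5 skeletal muscle markers and 345 of the 5 adipose markers. Tangerine mouse 216 had 302 counts of the 9 pancreas markers, and tangerine mouse 198 had 586 of the 4 kidney markers. A second tangerine library had 304 kidney counts, and the median was 54 on tangerine, 26 on red and 20 on control. The part of these markers in the results below was not tested beyond leaving libraries out. Acta1 (skeletal muscle) and Cela2a (pancreas) were at 0 in all 36 libraries. Because these are bulk samples, fewer cells of a type and less RNA per cell cannot be told apart.

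In the GENCODE M21 annotation of GRCm38 the 9 genes are protein coding and lie on 9 chromosomes. G6pc (ENSMUSG00000078650) spans chr11:101367561-101377903 on the plus strand, Pck1 (ENSMUSG00000027513) chr2:173153048-173159273 on the plus strand and Fbp1 (ENSMUSG00000069805) chr13:62864753-62888282 on the minus strand. Gys2 (ENSMUSG00000030244) spans chr6:142422613-142473109, Pygl (ENSMUSG00000021069) chr12:70190811-70231488 and Ppp1r3c (ENSMUSG00000067279) chr19:36731731-36736653, all on the minus strand. Ppp1r3b (ENSMUSG00000046794) spans chr8:35375739-35388139 on the plus strand. Ppargc1a (ENSMUSG00000029167) spans chr5:51454250-51567726 on the minus strand and Foxo1 (ENSMUSG00000044167) chr3:52268336-52353221 on the plus strand. Other annotated genes overlap 4 of them, and the counts of those genes came to at most 0.154% of the member's own count (the RNA Gm45469 over Ppp1r3b).

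The promoters of 3 members are shown because they hold, within 250 bases before the RefSeq start (GRCm38.p6), letters known as sites of the factors named above. Windows were at hand for 7 members (all but Gys2 and Ppp1r3b). Both strands were searched for TTACGTNA, the form of the cyclic AMP response element long studied at Pck1, for TGTTTNC, a forkhead core, and for the E-box CACGTG, the core bound by the clock factors CLOCK and ARNTL. These 3 patterns were picked after the sequences had been read. They do not overlap one another in the windows below, where capitals mark the matches and each sequence runs 5′ to 3′ toward the gene. The RefSeq starts of these 3 genes lie inside the outermost GENCODE bounds given above.
G6pc, chr11:101367466-101367715, plus strand: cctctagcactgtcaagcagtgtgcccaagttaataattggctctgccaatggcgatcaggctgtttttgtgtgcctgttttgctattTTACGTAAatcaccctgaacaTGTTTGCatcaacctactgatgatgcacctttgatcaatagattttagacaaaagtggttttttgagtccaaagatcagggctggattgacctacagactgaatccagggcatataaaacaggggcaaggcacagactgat
Pck1, chr2:173152823-173153072, plus strand: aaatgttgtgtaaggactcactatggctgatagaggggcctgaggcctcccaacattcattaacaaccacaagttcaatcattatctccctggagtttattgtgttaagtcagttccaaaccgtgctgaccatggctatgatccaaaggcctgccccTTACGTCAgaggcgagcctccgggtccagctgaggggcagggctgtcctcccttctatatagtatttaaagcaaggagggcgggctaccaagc
Ppp1r3c, chr19:36736605-36736854, minus strand: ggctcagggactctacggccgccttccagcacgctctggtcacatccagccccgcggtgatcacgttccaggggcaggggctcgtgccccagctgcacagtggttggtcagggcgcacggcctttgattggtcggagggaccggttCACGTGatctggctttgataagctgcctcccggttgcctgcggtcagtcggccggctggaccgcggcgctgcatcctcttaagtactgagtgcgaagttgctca

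In the G6pc window TTACGTAA stood 162 to 155 bases and TGTTTGC 141 to 135 bases before the start. The Pck1 window held TTACGTCA at 93 to 86 bases, and the Ppp1r3c window held CACGTG at 104 to 99 bases. Of all 32851 RefSeq windows of this length, 0.788% held TTACGTNA, 17.8% TGTTTNC and 6.02% CACGTG. The windows of Fbp1, Pygl, Ppargc1a and Foxo1 held none of the 3. A match describes letters and is not a measured binding site.

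The members differed widely in level. On a scale of CPM per kilobase of exon, which lets genes be compared, Pck1 had the highest median over the 36 libraries (669, range 109 to 1220), followed by Fbp1 (571, 461 to 730) and G6pc (261, 54.4 to 572). Pygl followed at 84.1, Ppp1r3b at 66.2, Gys2 at 60.6 and Ppp1r3c at 25.0. The regulators were lowest, with Foxo1 at 4.16 and Ppargc1a at 2.11. Neighbours in this order were separated in 34 or more of the 36 libraries, except for Pck1 over Fbp1 and Ppp1r3b over Gys2, each of which held in 20 of 36.

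They differed as much in how far livers of the same diet varied. G6pc and Pck1, the last and the first committed steps of gluconeogenesis, spread most, with a mean coefficient of variation within diets of 50.5% and 44.4%. Over all 36 livers their highest level was 10.5 and 11.2 times the lowest. Fbp1, the enzyme between them, spread least (10.1% within diets, 1.58 times over all livers). Pygl, liver glycogen phosphorylase, was nearly as even (13.5%, 1.69 times). Gys2 and Ppp1r3b lay at 22.8% and 21.8%, and Ppp1r3c, Foxo1 and Ppargc1a between 28.9% and 34.9%. Standard errors of the differences between diets were largest for G6pc and Pck1 and smallest for Fbp1 in all 3 comparisons.

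**Figure D1:**
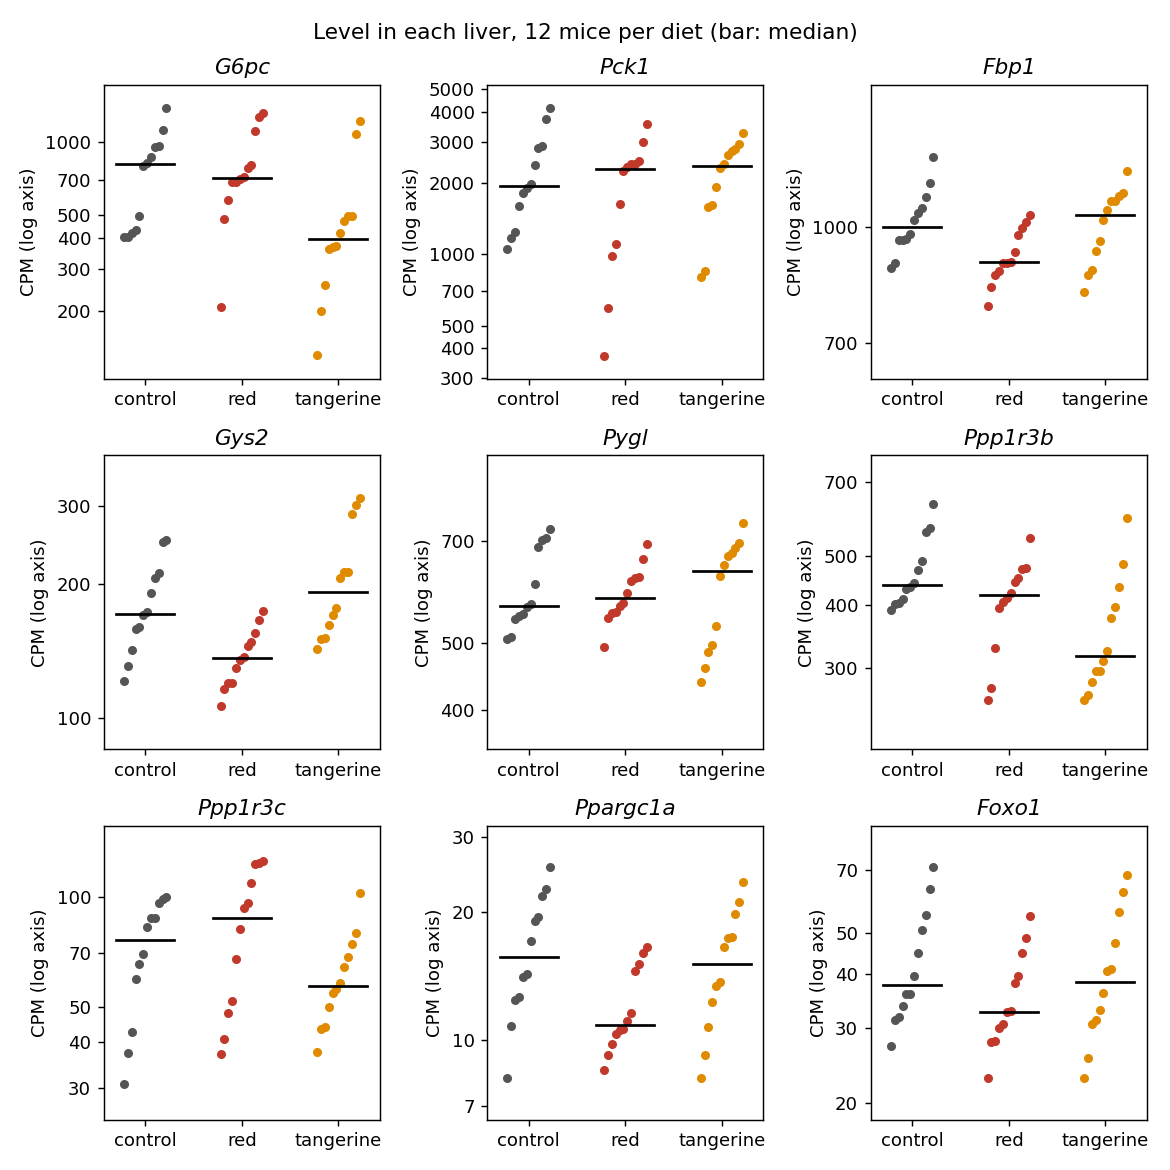
Level of each of the 9 genes in CPM (log axis, a scale of its own per panel) in every liver, 12 mice per diet, with points in order of level and a bar at the median. Gys2 is the gene whose tangerine livers (143.0 to 312.1 CPM) all lie above the red median (136.0), and the G6pc and Pck1 panels cover the widest ranges.

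Gys2 encodes liver glycogen synthase, which builds the glycogen chain, and it was the one member that differed between diets in edgeR's quasi-likelihood test. Its level ran from 120.8 to 251.4 CPM on control (median 171.7), from 106.1 to 174.4 on red (median 136.0) and from 143.0 to 312.1 on tangerine (median 192.0). All 12 tangerine livers lay above the red median and 7 lay above every red liver, while both tomato diets overlapped control. The highest tangerine levels were in mice 215, 216 and 217 (301.6, 287.5 and 312.1 CPM), with the next at 213.1 (mouse 242). Gys2 rose on tangerine against red by 0.59 on the log2 scale (SE 0.131, 95% interval 0.33 to 0.86, 1.51-fold, edgeR adjusted p = 0.0173), from 137.6 ± 20.96 to 207.4 ± 61.19 CPM (SD, n = 12 each). Control stood between them: red was at −0.39 against control (SE 0.130, edgeR adjusted p = 0.164) and tangerine at 0.20 (SE 0.130, edgeR adjusted p = 0.966). Both of these comparisons use the same 12 control livers. The call of tangerine against red held with each of the 36 libraries left out in turn (0.52 to 0.63). It was lost when the mouse number was a covariate (0.47, adjusted p = 0.0686), when red 186 and tangerine 216 were left out together (0.52, adjusted p = 0.0574), and when a score of clock gene expression was a covariate (0.09, adjusted p = 0.738). Leaving out tangerine 215, 216 and 217 together was not tested.

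Pygl encodes the enzyme that releases glucose units from glycogen. It ranged from 505.9 to 726.9 CPM on control, 492.0 to 692.2 on red and 439.4 to 742.5 on tangerine, so the 3 diets lay over each other. Its differences were between −0.03 and 0.01 on the log2 scale, and the 95% interval for tangerine against red ran from −0.15 to 0.18.

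Ppp1r3b and Ppp1r3c encode glycogen-targeting subunits that bring protein phosphatase 1 to glycogen, where it activates glycogen synthase. Ppp1r3b had a median of 436.9 CPM on control (390.9 to 631.4), 417.5 on red (259.3 to 541.7) and 316.5 on tangerine (259.2 to 593.2). In 8 of 12 tangerine livers it was below every control liver, although the highest tangerine livers reached into the control range. The difference of tangerine from control was −0.38 (SE 0.123, 95% interval −0.63 to −0.13). With an unadjusted p of 0.0037 it ranked 85th of 14068 genes in that comparison, and it did not pass edgeR's adjustment (adjusted p = 0.587). Ppp1r3c had medians of 76.35 CPM on control (30.62 to 100), 87.49 on red (37.15 to 125.4) and 57 on tangerine (37.62 to 102.4). Only 1 of 12 tangerine livers exceeded the red median, but every tangerine value lay within the red range. Its tangerine against red difference was −0.45 (SE 0.212, edgeR adjusted p = 0.307).

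G6pc encodes the catalytic subunit of glucose-6-phosphatase, the step that frees glucose for the blood. It had a median of 810.9 CPM on control (404.6 to 1381), 711.7 on red (208.8 to 1318) and 396.4 on tangerine (131.3 to 1221). Of the 12 tangerine livers, 6 lay below every control liver, 10 lay below the red median, and the highest reached the upper part of the control range. The log2 difference of tangerine was −0.63 from control (SE 0.294, 95% interval −1.22 to −0.03, edgeR adjusted p = 0.875) and −0.67 from red (SE 0.294, −1.27 to −0.07, edgeR adjusted p = 0.266). Neither passed in that test. Under limma-voom with sample weights, the difference from red was −0.93 with an adjusted p of 0.0452.

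Pck1 encodes phosphoenolpyruvate carboxykinase, the entry step of gluconeogenesis. It ran from 1053 to 4178 CPM on control (median 1949), 372.4 to 3559 on red (median 2305) and 804.0 to 3257 on tangerine (median 2372). Differences between diets were small beside this spread: −0.21 for red and −0.05 for tangerine against control, with a 95% interval of −0.63 to 0.54 for the latter. The lowest Pck1 level of all belonged to red 186, the library with muscle and adipose markers, whose part in that value was not tested. Fbp1 encodes fructose-1,6-bisphosphatase, and its narrow spread allowed small differences to be measured. It lay at 882.6 to 1242 CPM on control, 784.2 to 1039 on red and 818.9 to 1190 on tangerine. Red was at −0.16 from control (95% interval −0.28 to −0.03, edgeR adjusted p = 0.264) and 4 of 12 red livers were below every control liver.

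Ppargc1a encodes PGC-1alpha, a coactivator induced by glucagon. It ranged from 8.156 to 25.45 CPM on control (median 15.69), 8.528 to 16.54 on red (median 10.86) and 8.145 to 23.49 on tangerine (median 15.11). Only 2 of 12 red livers exceeded the control median. Its difference of red from control was −0.46 (SE 0.168, 95% interval −0.80 to −0.12, edgeR adjusted p = 0.218), and limma-voom gave −0.62 with an adjusted p of 0.0142. Foxo1 encodes the forkhead factor that insulin signalling sends out of the nucleus. Its levels of 27.29 to 71.01 CPM on control, 22.94 to 54.61 on red and 22.92 to 68.27 on tangerine overlapped, and no difference exceeded 0.27 in size.

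Over the 9 genes, edgeR at an adjusted p under 0.05 called 0 for red against control, where it called 0.149% of all tested genes (0.0498% higher and 0.0995% lower), 0 for tangerine against control (0.0142% of all genes) and 1, which was higher, for tangerine against red (1.71% of all genes, 0.732% higher and 0.981% lower). At an unadjusted p under 0.05 the counts were 3, 2 and 5 of 9, where all genes gave 13.3%, 5.47% and 15.1%. DESeq2's test also called 0, 0 and 1 of the 9, where it called 1.17%, 0.0426% and 2.78% of all genes. Limma-voom called 2, 0 and 2 of the 9, where it called 10.7%, 0.0142% and 5.3% of all genes. The median log2 difference over the 9 genes was −0.20, −0.07 and 0.14 in the same order, beside 0, −0.01 and 0 over all tested genes.

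**Figure D2:**
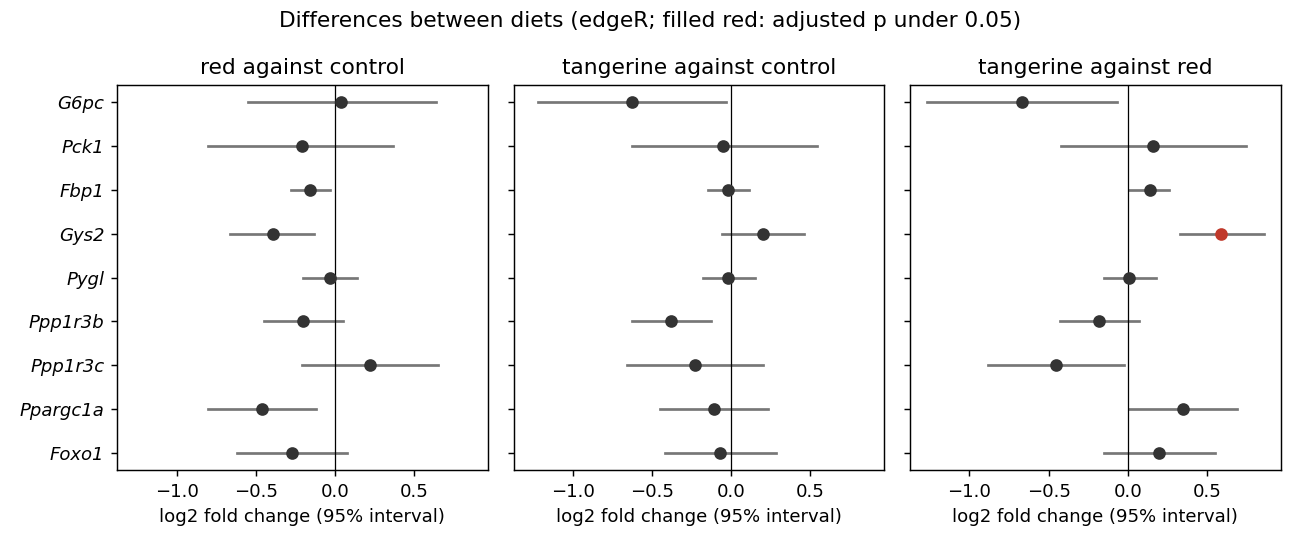
Log2 fold change (point) and 95% interval (line) of each gene in the 3 comparisons between diets, from edgeR, with a red point where the adjusted p is under 0.05. Gys2 in tangerine against red (0.59) is the single red point, and the intervals of G6pc and Pck1 are the widest.

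The other genes of the pathways were taken from lists of textbook members, drawn up with earlier results of these data known. For tangerine against red edgeR called 1.71% of all tested genes (0.732% higher and 0.981% lower), the share to set beside each list below. Of 20 tested genes for further steps of gluconeogenesis, 2 rose on tangerine against red and none fell. These were Slc37a4, the transporter that brings glucose 6-phosphate to glucose-6-phosphatase, and Gpt, the aminotransferase that turns alanine into pyruvate. Slc37a4 ran from 122.2 to 191.2 CPM on red and 141.7 to 241.1 on tangerine, where 8 of 12 livers were above every red liver (log2 0.39, SE 0.096, edgeR adjusted p = 0.0265). Gpt rose from 164.9 ± 17.18 to 209.0 ± 33.35 CPM (SD, n = 12 each; log2 0.34, edgeR adjusted p = 0.0251). The call for Slc37a4 was lost without red 175, tangerine 216 or tangerine 217 (edgeR adjusted p = 0.051 to 0.0629), and that for Gpt without red 202 or tangerine 216, 217 or 242 (edgeR adjusted p = 0.0508 to 0.0618). The median over the list was 0.09. Tat, Pcx and Mdh1, among the list genes with the highest levels, had differences of 0.06, 0.01 and 0.09 and did not pass. So in the tangerine against red comparison the transporter and the catalytic subunit of the glucose-6-phosphatase system had estimates of opposite sign, 0.39 for Slc37a4, which passed, and −0.67 for G6pc, which did not. Against control, Slc37a4 was at −0.42 on red (edgeR adjusted p = 0.0588) and −0.02 on tangerine. Gpt was at −0.16 and 0.19 in the same order, and none of these passed.

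Of 21 tested genes for other glycogen enzymes and regulators, 1 rose on tangerine against red and none fell. This was Ugp2, which makes UDP-glucose, the substrate of glycogen synthase. Ugp2 ran from 291.5 to 487.1 CPM on red and from 391.5 to 634.5 on tangerine, with all 12 tangerine livers above the red median (log2 0.35, SE 0.086, edgeR adjusted p = 0.0265). The call was lost without red 175 or 202 or tangerine 198, 215 or 216 (edgeR adjusted p = 0.0519 to 0.0547). Its mean on control, 494.0 CPM, was close to that on tangerine, 494.8, and red was at −0.35 against control (edgeR adjusted p = 0.0604). In tangerine against red, Gbe1, the branching enzyme, was at 0.18 (edgeR adjusted p = 0.223), Gaa at −0.07 and Pgm1 at −0.01, and the median of the list was 0.05. The 5 tested muscle and brain isozymes, such as Gys1 and Pygb, gave no call in any comparison and levels no higher than 17.39 CPM in any diet's mean.

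Among 23 tested genes of hormone signalling and transcription, Cebpa, a factor of hepatocyte metabolism, rose on tangerine against red, from 292.0 to 362.5 CPM (log2 0.31, SE 0.085, edgeR adjusted p = 0.0452). This call was kept in 19 of 36 fits with a library left out (edgeR adjusted p up to 0.104, without tangerine 215). Gcgr, the glucagon receptor, was at 0.01, Hnf4a at −0.02 and Creb3l3 at −0.07. Of 7 genes of glycolysis and sugar entry none passed, with Pklr at 0.30 and Khk at 0.02. In red against control and in tangerine against control, edgeR called 0 genes in each of these lists. Cebpa was at −0.14 and 0.17 in these comparisons. At an unadjusted p under 0.05, gluconeogenesis had 6 of 20 genes for red and 1 for tangerine, glycogen 4 of 21 and 0, hormone signalling 3 of 23 and 1, and glycolysis 3 of 7 and 0. All tested genes gave 13.3% for red and 5.47% for tangerine, close to the shares of hormone signalling for red and of gluconeogenesis for tangerine. For tangerine against red the counts were 5 of 20 for gluconeogenesis, 3 of 21 for glycogen, 5 of 23 for hormone signalling and 0 of 7 for glycolysis. All tested genes gave 15.1% there, close to the share of glycogen.

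Genes known to rise with fasting or feeding were set beside the members because the members were gathered to read feeding state. The fasting list holds 3 of the members (G6pc, Pck1 and Ppargc1a), and the feeding list shares Pklr, Mlxipl and Pfkfb3 with that of glycolysis. None of the 15 fasting genes passed in any comparison by edgeR, with 5, 1 and 5 of 15 at an unadjusted p under 0.05 for red against control, tangerine against control and tangerine against red. All tested genes gave 13.3%, 5.47% and 15.1% in the same order. The 5 for red against control were of mixed sign, with Lpin1 at −0.90 and Pdk4 at 0.92. Pdk4, which spares glucose by braking pyruvate oxidation, was at 18.75 ± 11.16 CPM on red and 8.426 ± 3.845 on tangerine (SD, n = 12 each; log2 −1.16, edgeR adjusted p = 0.059). It was the fasting gene with the largest difference in that comparison and was chosen after its value was seen. The list's median was −0.07, with 5 estimates above and 10 below 0, and Cpt1a, Lpin1 and Creb3l3, among its most abundant genes, were at 0.00, 0.42 and −0.07. Of the 13 feeding genes, Thrsp, a lipogenic gene that responds to carbohydrate, rose on tangerine against red, from 593.7 ± 242.0 to 1227 ± 544.1 CPM (log2 1.05, SE 0.261, edgeR adjusted p = 0.0287). In 10 of 12 tangerine livers it was above every red liver. The call was lost without red 166, 175, 199 or 202 or tangerine 216, 217 or 242 (edgeR adjusted p = 0.0501 to 0.0625). The median over the 13 genes was 0.30, with 11 of 13 estimates above 0, beside 6829 of all 14068 tested genes. At an unadjusted p under 0.05 there were 2 of 13, a share close to the 15.1% of all genes. Against control the feeding genes were not raised: the median was −0.47 for red, with 12 of 13 estimates below 0 and 6 at an unadjusted p under 0.05, and −0.20 for tangerine, with 11 of 13 below 0. Of all 14068 tested genes, 7245 were below 0 for red and 7788 for tangerine, and 13.3% had an unadjusted p under 0.05 for red. Thrsp itself was at −1.02 against control on red (edgeR adjusted p = 0.0689) and at 0.03 on tangerine. In tangerine against red, Fasn (0.34), Acly (0.43) and Scd1 (−0.43) did not pass.

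The clock genes differed between the tomato diets as well, in a comparison where edgeR called 0.732% of all tested genes higher and 0.981% lower. Of 14 tested clock genes, 3 rose and 4 fell on tangerine against red by edgeR, among them Dbp (log2 1.84, adjusted p = 0.0289) and Tef (1.08, adjusted p = 0.0271), which are output factors of the clock, and Arntl (−1.46, adjusted p = 0.0464) and Npas2 (−2.51, adjusted p = 0.0224), which drive it. With a library left out, the calls for Dbp, Tef, Arntl and Npas2 were kept in 26, 31, 17 and 36 of 36 fits, and the first 3 were lost without tangerine 216 (edgeR adjusted p = 0.0684, 0.0682 and 0.0913). All 4 were lost with the mouse number as covariate (edgeR adjusted p = 0.113, 0.108, 0.0966 and 0.0528). They were also lost without red 186 and tangerine 216 together (edgeR adjusted p = 0.0984, 0.0997, 0.121 and 0.0553). Dbp and Arntl peak at opposite phases of the day, so the log2 ratio of their CPM orders livers by clock state. It ran from −3.59 to 5.56 on control (median 3.87), from −2.99 to 3.21 on red (median −0.23) and from 1.44 to 6.89 on tangerine (median 3.55). Tangerine and most control livers were high and most red livers low, and red and tangerine overlapped between 1.44 and 3.21. Dbp shares its locus with Sphk2 on the other strand, whose count is 82.8% of that of Dbp, and the strand setting of the counting is not given in the sources used here.

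To see how the members varied with this ratio apart from the diets, each value was taken as its deviation from the diet mean in 36 livers, and 9 relations were tested by permutation within diets. Gys2 followed the ratio most closely (Pearson's r = 0.85, permutation p = 1e-05, which is the smallest the permutations can give, adjusted p = 9e-05; Spearman's rho = 0.89, permutation p = 1e-05). The relation held within each diet of 12 livers, at r = 0.83 on control, 0.90 on red and 0.93 on tangerine. It was r = 0.86 without the 2 livers farthest from the median ratio and 0.84 without red 186 and tangerine 216. Those 2 farthest livers were control 188 and red 202, at the low end. Tangerine mice 215, 216 and 217 had the highest ratios of all livers (6.503, 6.893 and 6.339) and the highest Gys2 levels. Leaving these mice out together was not tested. Livers with much Dbp relative to Arntl thus had high Gys2 on every diet. Because the diets also differed in that ratio, the parts of diet and of clock state in the Gys2 difference between diets cannot be told apart.

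G6pc went the other way, at r = −0.51 (permutation p = 0.00098, adjusted p = 0.00441; rho = −0.50, permutation p = 0.00237). Within diets, r was −0.87 on tangerine (adjusted permutation p = 0.00018), −0.26 on control (adjusted permutation p = 0.78) and −0.45 on red (adjusted permutation p = 0.178), and the difference between diets in r was not tested. Mice 215, 216 and 217, which had the highest ratios, also had the lowest tangerine G6pc levels (131.3, 256.2 and 200.1 CPM). Their part in the tangerine value was not tested. Pygl (r = −0.49, rho = −0.49, permutation p = 0.00263 and 0.00296, adjusted p = 0.00789 for r) and Ppp1r3b (r = −0.42, rho = −0.42, permutation p = 0.00919 and 0.0129, adjusted p = 0.0165 for r) were also lower in livers with a high ratio, with negative r in each diet. Ppp1r3c had r = −0.49 (rho = −0.51, permutation p = 0.00362 and 0.00186, adjusted p = 0.00814 for r), with −0.80 on red, −0.44 on control and −0.11 on tangerine. Without the 2 farthest livers these 4 values were −0.55, −0.45, −0.38 and −0.51.

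The remaining 4 relations did not pass over all livers. Foxo1 had r = 0.35 (rho = 0.36, permutation p = 0.0383 and 0.0343, adjusted p = 0.0574 for r), Pck1 0.21 (rho = 0.27, permutation p = 0.214 and 0.116, adjusted 0.275 for r), Ppargc1a 0.19 (rho = 0.20, permutation p = 0.296 and 0.262, adjusted 0.332 for r) and Fbp1 −0.05 (rho = −0.05, permutation p = 0.759 and 0.76). Without the 2 farthest livers r was 0.53 for Foxo1, 0.37 for Pck1, 0.19 for Ppargc1a and −0.18 for Fbp1. Within tangerine, Foxo1 had r = 0.67 (adjusted permutation p = 0.041). Its highest tangerine levels were in mice 215, 216 and 217 (68.27, 62.41 and 55.84 CPM), whose part in this value was not tested. Ppargc1a differed between diets in description, with r = 0.82 on red and −0.12 on control.

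**Figure D3:**
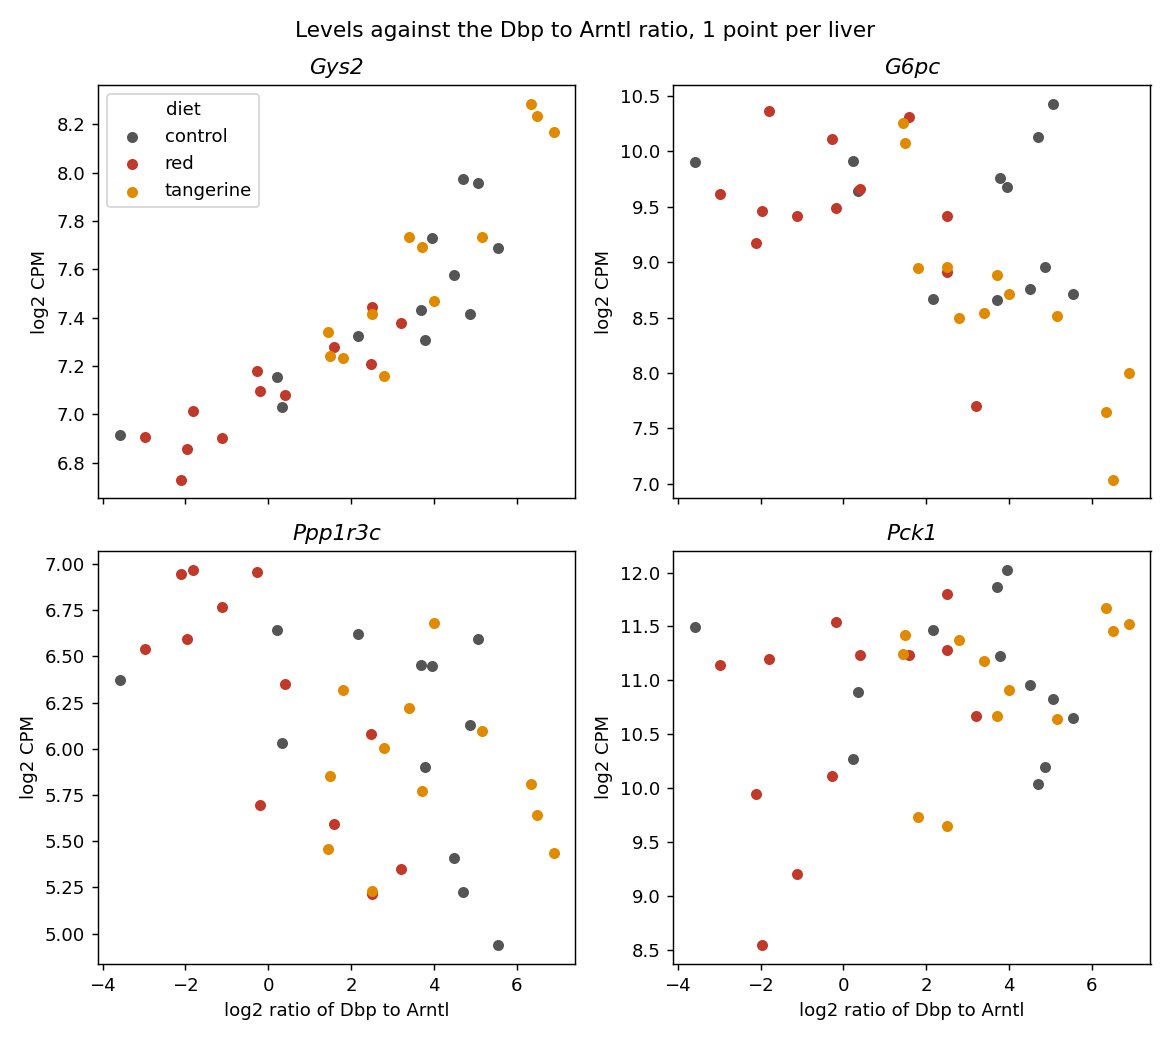
Level of Gys2, G6pc, Ppp1r3c and Pck1 (log2 CPM) against the log2 ratio of Dbp to Arntl, 1 point per liver, coloured by diet. Gys2 climbs with the ratio in all 3 diets (r = 0.83, 0.90 and 0.93), G6pc and Ppp1r3c decline, and Pck1 shows no clear trend.

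When the first principal component of the 14 clock genes, which held 79.9% of their variance, was added to the edgeR fit, the estimate of Gys2 for tangerine against red moved from 0.59 to 0.09, while all 241 calls among tested genes became 0. That of G6pc moved from −0.67 to −0.16. Slc37a4 (0.26), Ugp2 (0.34) and Thrsp (0.80) kept more of their estimates but no longer passed (edgeR adjusted p = 0.372, 0.251 and 0.316). Gpt moved to 0.16 and Cebpa to 0.10 (edgeR adjusted p = 0.499 and 0.663). The clock score differed between these diets (−2.55 ± 2.36 on red, 1.74 ± 2.27 on tangerine, SD, n = 12 each), so within this fit the share of a difference that goes with diet and the share that goes with clock state cannot be told apart.

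Among the members themselves, 36 pairs were compared in the same way, and 9 passed at a permutation p adjusted over the pairs, 5 positive and 4 negative. Pck1 and Foxo1 moved most closely together (r = 0.70, permutation p = 1e-05, the smallest possible, adjusted p = 0.00036; rho = 0.76, permutation p = 1e-05), at 0.79 on control, 0.58 on red and 0.87 on tangerine. Foxo1 was also high where Ppargc1a was high (r = 0.59, permutation p = 0.00037, adjusted p = 0.00666; rho = 0.60, permutation p = 0.00028). G6pc, by contrast, was low where Foxo1 was high (r = −0.52, permutation p = 0.00224, adjusted p = 0.0134; rho = −0.52, permutation p = 0.00203), at −0.45, −0.55 and −0.55 in the 3 diets and −0.40 without the 2 farthest livers. G6pc and Pck1, whose promoters above both hold TTACGTNA, had r = −0.10 (adjusted permutation p = 0.665), and the part of that motif was not tested.

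A second group held Pygl with G6pc (r = 0.56, permutation p = 0.00089, adjusted p = 0.00981; rho = 0.59, permutation p = 0.00055), with Fbp1 (r = 0.55, permutation p = 0.0016, adjusted p = 0.0115; rho = 0.50, permutation p = 0.00421) and with Ppp1r3b (r = 0.55, permutation p = 0.00109, adjusted p = 0.00981; rho = 0.59, permutation p = 0.00049). Without the 2 farthest livers these were 0.45, 0.54 and 0.47. The pair of Fbp1 and Pygl was the exception to a common sign, with r = −0.03 on red beside 0.45 on control and 0.84 on tangerine. The other 8 pairs that passed had the same sign in all 3 diets. Pygl and Foxo1 were opposed (r = −0.47, permutation p = 0.00753, adjusted p = 0.0356; rho = −0.46, permutation p = 0.00885; −0.48 without the 2 farthest livers). So were Gys2 and Ppp1r3b (r = −0.44, permutation p = 0.011, adjusted p = 0.0441; rho = −0.42, permutation p = 0.0152, which at an adjusted p of 0.0546 did not pass; −0.36 without the 2 farthest) and Gys2 and Ppp1r3c (r = −0.41, permutation p = 0.00792, adjusted p = 0.0356; rho = −0.43, permutation p = 0.0077; −0.44 without them). By Pearson's r, transcripts of glycogen synthase thus tended to be low in livers where those of the phosphatase-targeting subunits were high.

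**Figure D4:**
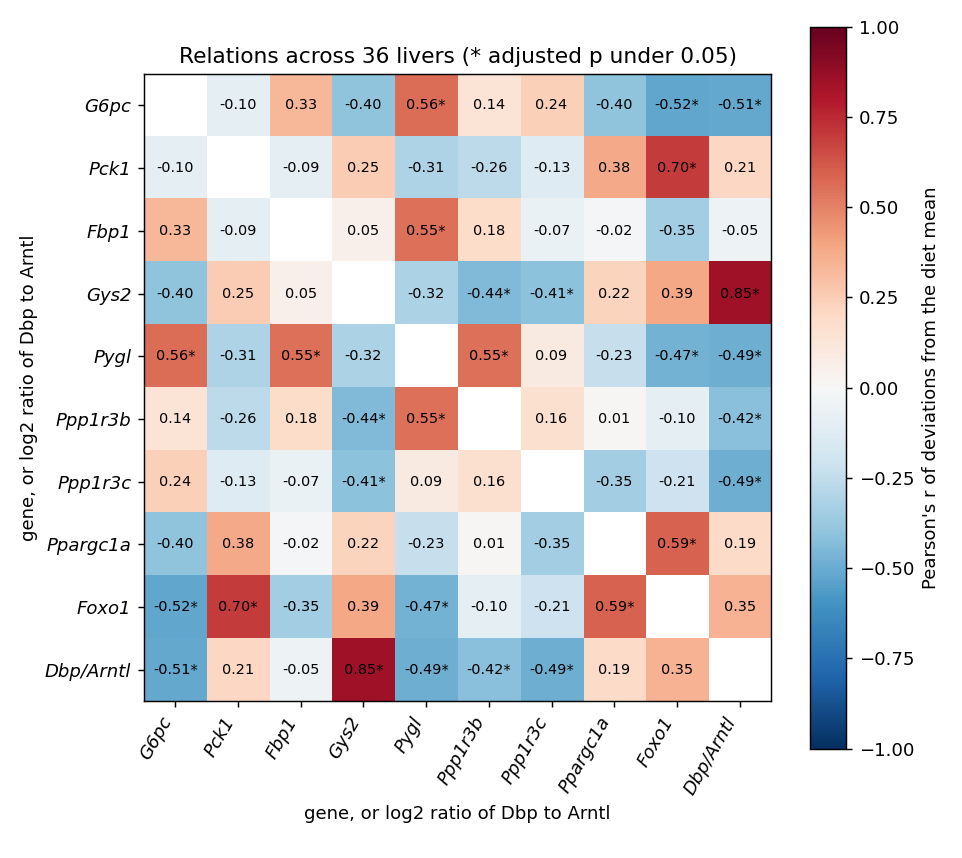
Pearson's r between every pair of the 9 genes, and between each gene and the log2 ratio of Dbp to Arntl, over 36 livers as deviations from the diet mean, with a star where the adjusted permutation p is under 0.05. Pck1 with Foxo1 (0.70) and Gys2 with the ratio (0.85) stand out as positive, and G6pc with Foxo1 (−0.52) as negative.

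The fasting and feeding lists placed some members on different sides and others on neither, as a description without a test. Over the 12 fasting genes that are not members, the median r across livers was 0.39 for Pck1 and 0.31 for Foxo1, and over the 13 feeding genes it was −0.39 and −0.40. Pygl and Fbp1 had medians of 0.70 and 0.66 over the feeding genes, and −0.25 and −0.10 over the fasting genes. G6pc, which fasting is known to induce, had −0.18 over the fasting genes and 0.23 over the feeding genes. Gys2 was near 0 over both (0.03 and −0.06), with −0.80 for Pdk4 as its lowest fasting gene. Ppargc1a, itself on the fasting list, had 0.18 over the fasting genes and 0.02 over the feeding genes. In the same order Ppp1r3c had 0.03 and −0.13, and Ppp1r3b −0.09 and 0.39. Over all other 14058 tested genes the median r was −0.01 for Foxo1 and Ppargc1a, 0.01 for Ppp1r3c and 0.00 for the other members.

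The genes most like each member were found by Pearson's r of log2 CPM over the 36 libraries among all 14068 tested genes. Pck1 was closest to Klf15 (0.93), a glucocorticoid-induced factor that acts on amino acid breakdown, then to Pim3 (0.87) and Angptl4 (0.83). Foxo1 was closest to Rnf169 (0.93), Ell2 (0.90) and Susd6 (0.90). Gys2 was closest to the clock output factor Tef (0.87), then to Slc5a6 and 1700001L05Rik (0.86 each). Among the genes most like Fbp1 were the enzymes Eno1b (0.79) and Hgd (0.77), and Pygl was closest to Tkfc, Fam198a and Slc25a44 (0.80 each). G6pc was closest to Tmie (0.77), Slc25a25 (0.75) and Slc34a2 (0.73), and Ppargc1a to Pptc7, Slc7a2 and D1Ertd622e (0.75 to 0.76). Ppp1r3b and Ppp1r3c had no gene above 0.62 (Dapk2) and 0.65 (Epha2).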

How the data were processed

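Per the labels' protocols, RNA from preserved liver was made into directional (NEXTflex) libraries. The authors deposited raw read counts per gene for 36 libraries. The submitters' processing notes name FastQC, Trimmomatic, edgeR and the build GRCm38.p6; the aligner, counter, annotation release and strand setting are not given in the sources used here. Symbols, positions and exon lengths came from GENCODE M21 (53620 of 53715 identifiers matched). Columns were assigned by the names in the sample labels. No libraries were near-duplicates (smallest chi-square per degree of freedom 13.69 within and 13.96 between diets). Nothing in the labels states separate housing or processing, so p-values measure the spread between these mice and their libraries.

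In edgeR 4.0.16, filterByExpr (count 10, total 15) left 14068 genes, which were scaled by TMM and tested with the quasi-likelihood F test on all 36 libraries without covariates. P-values were adjusted by Benjamini-Hochberg over all tested genes, with a threshold of 0.05. CPM are TMM-scaled, except for the sums of hepatocyte markers, which were scaled by the raw library totals before filtering. A prior count of 2 was added for log2 CPM. Standard errors were derived from the F statistic. Relations used 100000 permutations within diets in numpy 2.4.6 and Benjamini-Hochberg adjustment over the family. On simulated counts for tangerine against red (13996 genes), 80 of 100 genes changed by 0.5 on the log2 scale and 93 of 99 changed by 1 were recovered, with 5 false calls. The changed genes were picked at random, and counts were drawn independently per gene, without variation shared between genes. These shares are therefore not the power for any single member.

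The 9 members and all lists were chosen with earlier results of these data known. All members are named. A gene of another list is named if it passed in any comparison, and otherwise up to 4 per list with the highest level; Pdk4, Gys1 and Pygb were named after their values were seen, as were the choice of clock genes to print and the promoter motifs. The 3 most alike genes per member follow from the largest r. Some genes that these rules would name are not reported here. Alternatives were DESeq2 1.42.0 size factors or test, limma-voom (limma 3.58.1), no filter, only the groups compared, covariates, and libraries left out.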

Additional observations from a re-analysis of the deposited data

Results flagged for a closer look

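In the direct test between the tomato diets (edgeR's quasi-likelihood test, 12 livers each), 14 of the genes listed in the report differed at an adjusted p under 0.05. None of them passed for either diet against control. With the clock score as covariate no tested gene passed in the direct test, so the loss is not particular to these genes. The clock genes named below are themselves part of that score. Gys2 was higher on tangerine by 0.59 on the log2 scale, as were the pathway genes Slc37a4 (0.39), Gpt (0.34) and Ugp2 (0.35), the transcription factor Cebpa (0.31) and the lipogenic gene Thrsp (1.05). Cps1, a urea cycle enzyme that served as a hepatocyte marker, was higher by 0.40. Of the clock genes, Nr1d2 (0.75), Dbp (1.84) and Tef (1.08) were higher, and Arntl (−1.46), Clock (−0.46), Npas2 (−2.51) and Cry1 (−0.47) were lower. Clock and Cry1 kept their calls in 9 and 13 of 36 fits with a library left out and in 3 of 8 other settings each.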

How the results depend on the processing

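Each comparison was refitted in 8 other ways and with each of the 36 libraries left out in turn. Members called numbered 0 throughout for tangerine against control. For red against control they were 0 except 2 with limma-voom (Gys2 −0.39, adjusted p = 0.0336; Ppargc1a −0.62, adjusted p = 0.0142). For tangerine against red they were 2 with limma-voom and 0 with the clock score, with the mouse number or without red 186 and tangerine 216 together. With single libraries left out they stayed at 0, 0 and 1. Gys2 kept its call in 5 of 8 settings. All genes called for red against control moved from 21 to 164 with DESeq2's test, 1504 with limma-voom, 4 with the clock score, 53 without red 186 and tangerine 216, and 13 to 127 with single libraries left out. For tangerine against control they moved from 2 to 6 with DESeq2's test, 1 with the mouse number and 2 to 4 with single libraries left out. For tangerine against red they moved from 241 to 136 without a filter, 391 with DESeq2's test, 746 with limma-voom, 0 with the clock score, 32 with the mouse number, 86 without red 186 and tangerine 216, and 89 to 301 with single libraries left out. The cause was not tested. Signs turned only for estimates that had not passed, apart from clock genes. With the clock score these were G6pc (−0.48) and Ppp1r3c (−0.15) for red against control, Pygl (0.01) for tangerine against control, and Pck1 (−0.08), Ppp1r3b (0.02), Ppp1r3c (0.04), Foxo1 (−0.11), Arntl (0.01), Cry1 (0.01) and Tef (−0.02) for tangerine against red. Pygl also turned with limma-voom (0.02 for either diet against control) and with the mouse number (0.01 for tangerine against control). With single libraries left out, ranges that crossed 0 were G6pc for red against control (−0.05 to 0.16), Pck1 (−0.12 to 0.07), Fbp1 (−0.04 to 0.01), Pygl (−0.05 to 0.02) and Foxo1 (−0.16 to 0.01) for tangerine against control, and Pygl for tangerine against red (−0.02 to 0.05). The libraries that moved such a count by over 1.5 times were red 166, 170, 177, 186 and 204, control 120, 189 and 245 and tangerine 216 for red against control (189 gave the highest count, 166 the lowest), tangerine 192 for tangerine against control, and red 133, 156, 175, 199 and 202 and tangerine 215, 216, 217 and 242 for tangerine against red (216 gave the lowest). Calls for Slc37a4, Gpt, Ugp2, Cebpa and Thrsp in tangerine against red were kept in 33, 32, 31, 19 and 29 of 36 fits with a library left out. Without tangerine 216 all 5 were lost (adjusted p = 0.0629, 0.0618, 0.0526, 0.0943 and 0.0618). All 5 were also lost with the mouse number as covariate (adjusted p = 0.0528, 0.0638, 0.0624, 0.108 and 0.0551). Without red 186 and tangerine 216 together, of these calls only that for Ugp2 was kept. DESeq2 size factors ended the calls for Clock and Cry1 (adjusted p = 0.0505 and 0.0535). Testing without a filter, which adds genes to the adjustment, ended those for Dbp (0.0627), Tef (0.0564), Arntl (0.101), Clock (0.0991), Cry1 (0.0921), Thrsp (0.0622), Cebpa (0.0578) and Cps1 (0.0578). Leaving out red 186 and tangerine 216 from the relations was chosen after seeing the data. No paired analysis was possible because no mouse number occurs in more than 1 diet. Depth did not limit the members, which had at least 163 counts in every library.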
